A study of Mus musculus with 12 samples.

Results

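The 33 genes described here carry out glycolysis or belong to the response of cells to low oxygen. They were chosen by symbol, and every row of the deposited count tables whose Ensembl identifier is annotated with one of the 33 mouse symbols was taken, which gave 34 of the 55487 rows, because the symbol Aldoa stands for 2 identifiers. The main row is ENSMUSG00000030695.16, and the other, ENSMUSG00000114515.2, is a short model next to it that held 9.2 to 72.3 normalized counts and is called the second Aldoa row below. All 34 rows passed the filter on low counts.

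The RNA came from epithelium of C57BL/6 mice aged 6 to 10 weeks, male or female, without genetic change and without the oncology drugs that the study tested. SI tissue and LI tissue are crypts freshly isolated from the small intestine (the jejunum) and the large intestine. SI monolayers and LI monolayers are crypts of the same regions plated on Matrigel and grown for 24 h in control medium with Wnt3a, EGF, Noggin and R-spondin-1. At seeding, both were kept for 4 h in a medium that held inhibitors of GSK3, BMP receptors and ROCK. Culture and these inhibitors cannot be told apart. Each of the 4 groups has 3 libraries, from 3 mice or from 3 sets of pooled wells, and wells of different sets may share a mouse. For the cultures, the study took the large intestine from the mice that gave the jejunum, so the regions share mice, but the labels do not say which libraries do. The tests therefore measure the spread between these libraries. LI crypts were freed in a warm medium that held the ROCK inhibitor, with enzymes (Collagenase D, Dispase and DNase) as well as EDTA. SI crypts were freed with EDTA in ice-cold buffer, so region and isolation cannot be told apart.

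Glycolysis splits glucose into pyruvate in a chain of enzyme steps in the cytosol, and lactate dehydrogenase can turn that pyruvate into lactate, which leaves the cell through monocarboxylate carriers. The transcription factors HIF-1 and HIF-2 pair an alpha subunit with ARNT. When oxygen is plentiful, prolyl hydroxylases mark the alpha subunits for destruction, and when it is scarce the factors bind short DNA elements and raise the transcription of glucose transporters, glycolytic enzymes and genes such as Vegfa. The intestinal epithelium sits on a steep oxygen gradient between its blood supply and an almost oxygen-free lumen, which is why both gene groups are often studied there.

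The libraries held 59016196 to 76216530 counts, so that 3 counts correspond to 0.0394 to 0.0508 CPM (counts scaled to a common library size). Values below are the deposited normalized counts, which are counts divided by a size factor per library, and log2 fold changes come from edgeR, where the value after ± is the standard error (SE). A gene is called higher or lower when its adjusted p is under 0.05 and its log2 fold change is at least 1 in size. Region markers followed the labels: 6 small intestine markers summed to 7170 to 9490 CPM in SI tissue against 188 to 314 in LI tissue, and 6 large intestine markers to 7.21 to 8.64 against 1230 to 3530, with 128 to 133 left in LI monolayers. Several marker sums differed between tissue and monolayers. The 8 epithelial markers summed to 12300 to 13200 CPM in tissue and 27200 to 27700 in monolayers of SI, and to 21900 to 22600 in tissue and 34200 to 35000 in monolayers of LI. Among them, Krt8, Krt18, Krt19 and Cdh1 had higher mean normalized counts in monolayers than in tissue of both regions. Epcam, Vil1, Cdx1 and Cdx2 had lower means there, so this list did not move as one. The 8 immune markers went from 113 to 158 CPM in SI tissue to 8.12 to 9.59 in SI monolayers, and from 26.5 to 34.3 in LI tissue to 2.78 to 3.47 in LI monolayers. The 6 enterocyte markers summed to 10000 to 13800 CPM in SI tissue and 3960 to 4210 in SI monolayers, while in LI they ranged over 227 to 340 CPM for tissue and 142 to 194 for monolayers. The 8 proliferation markers summed to 793 to 905 CPM in tissue and 1180 to 1210 in monolayers of SI, and to 679 to 736 and 1030 to 1100 in those of LI. The mitochondrially encoded share of counts lay at 4.56 to 9.16% in SI tissue against 0.472 to 0.559% in SI monolayers, and at 2.25 to 2.59% in LI tissue against 0.704 to 0.75% in LI monolayers. The part of these shifts in the results below was not tested, and in RNA from bulk samples fewer cells of a type and less RNA per cell cannot be told apart.

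The first question was what culture did to these genes in each region. In SI, 17 of the 34 rows (50%) were higher in monolayers than in tissue, against 9.71% of the 19581 genes tested, and 0 were lower, against 16.4% of all. By edgeR, 4 members were lower in SI monolayers at an unadjusted p under 0.05, and DESeq2 called 1 member lower, Pdk4. In LI, 4 rows (11.8%) were higher, against 14.5% of all genes, and 8 (23.5%) were lower, against 23.5% of all, so that with this fold limit the LI counts lay at the background. Without a minimum fold change, 27 rows were higher in SI monolayers, against 29% of all genes, and 2 were lower, against 30.6%. At that setting 9 rows were higher in LI monolayers, against 32.1% of all genes, and 18 of 34 were lower, against 36.6% of all. The median log2 fold change of the members was 0.86 in SI and -0.33 in LI, beside -0.05 over all tested genes in both regions. Of the 17 rows that rose in SI, 4 also rose in LI (Slc2a1, Eno1, Pfkfb3 and P4ha2), 2 fell in LI (Aldoc and Bnip3), and 11 were not called there.

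**Figure D1:**
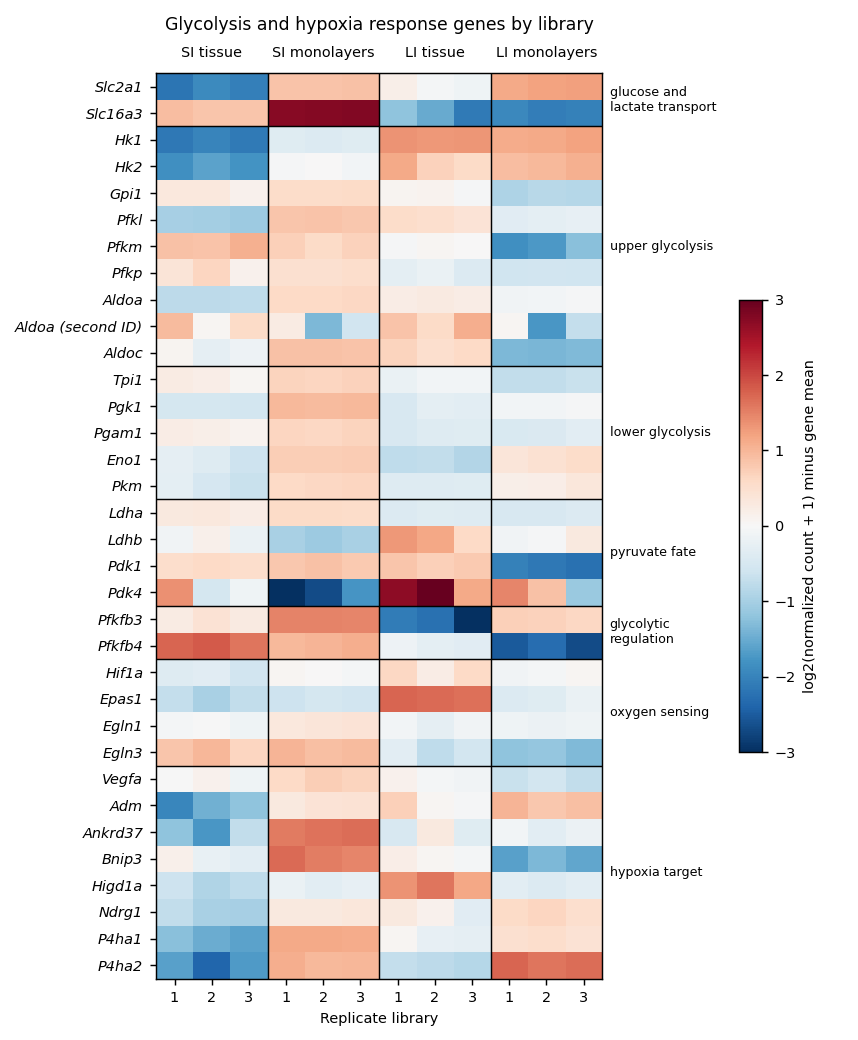
Level of each member (rows, ordered by role) in each of the 12 libraries (columns, 3 per group), as log2(normalized count + 1) minus the gene's mean over the libraries; colours stop at -3 and 3. Most rows are redder in SI monolayers than in SI tissue, whereas Pdk1, Pfkfb4, Bnip3 and Aldoc are bluest in LI monolayers.

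The difference between the regions was then tested itself, as the culture change in LI minus the culture change in SI. It was lower in LI for 20 members (58.8%), against 11.4% of all genes, and higher for 1 member (2.94%), Pfkfb3, against 8.51% of all. Without a minimum fold change it was lower for 28 members and higher for 1, against 23.3% and 23% of all genes. The median of this difference was -1.23 over the members on the log2 scale and 0.00 over all tested genes. Of the 20, 12 rose in SI culture, 7 fell in LI culture, 2 of them doing both, and 3 (Gpi1, Tpi1 and Vegfa) were called in neither region alone.

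**Figure D2:**
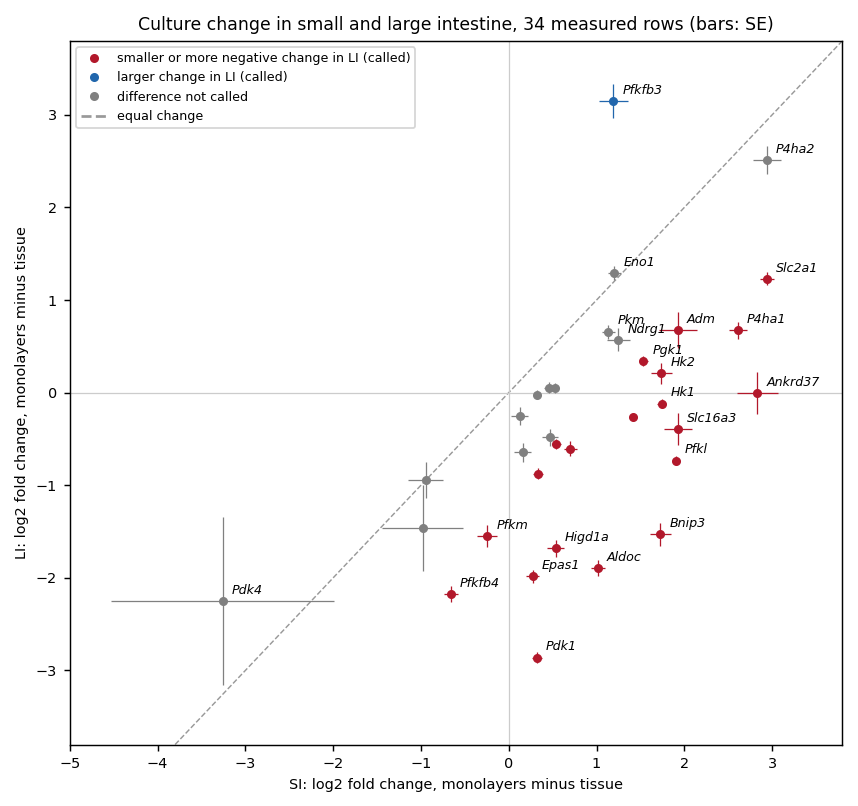
Log2 fold change of each of the 34 rows between monolayers and tissue in SI (horizontal axis) and LI (vertical axis), with SE bars; colour gives the call on the difference between the regions and the dashed line marks equal change. Pfkfb3 lies above the line at 1.19 and 3.15, Eno1 and P4ha2 lie close to it, and the 20 red genes lie below it.

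Of the carriers for glucose and lactate, both rose in SI culture (9.71% of all genes rose) and 1 of them, Slc2a1, in LI culture (14.5% of all). Slc2a1 encodes GLUT1, the glucose transporter that many cells use for basal uptake. It held 2282, 2783 and 2527 normalized counts in tissue and 18908, 18920 and 19232 in monolayers of SI, and 11739.9, 10026 and 9599 in tissue and 22776, 24018 and 24413 in monolayers of LI. Every monolayer library was above every tissue library of its region, and LI tissue lay above SI tissue without overlap. Slc2a1 rose by 2.94 ± 0.08 (SE), adjusted p = 5.98e-14 in SI, the largest rise of any member there together with P4ha2, and by 1.23 ± 0.07 (SE), adjusted p = 2.33e-10 in LI, and the difference between these changes was -1.71 ± 0.10 (SE), adjusted p = 2.54e-09. Slc16a3 encodes MCT4, a carrier that exports lactate. Its libraries read 4745, 4422 and 4442 in SI tissue and 16568, 16854 and 17168 in SI monolayers, but 1073, 870.5 and 575 in LI tissue and 648, 595 and 605 in LI monolayers. SI monolayers therefore stood far above the other 3 groups, while the LI groups overlapped. The SI rise was 1.93 ± 0.16 (SE), adjusted p = 2.66e-06, and in LI the log2 fold change was -0.40 ± 0.17 (SE), adjusted p = 0.0643.

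In the upper part of glycolysis, where glucose is trapped, phosphorylated and split, 5 of 9 rows rose in SI monolayers (Hk1, Hk2, Pfkl, Aldoa and Aldoc) and 3 of 9 fell in LI monolayers (Pfkm, Aldoc and the second Aldoa row), beside 9.71% of all genes higher in SI and 23.5% lower in LI. Hexokinases 1 and 2 add the first phosphate to glucose. Hk1 held 1675, 1867 and 1699 normalized counts in SI tissue and 5769, 5608 and 5767 in SI monolayers, and 18783, 18190.2 and 18562 in LI tissue and 16041, 16441 and 17072 in LI monolayers. Hk2 held 1877, 2198 and 1913 in SI tissue and 6512, 6694 and 6273 in SI monolayers, and 14708, 10845 and 9927 in LI tissue and 12592, 13131 and 13945 in LI monolayers. Both genes rose in SI by 1.74 (SE 0.05 for Hk1 and 0.12 for Hk2; adjusted p = 1.85e-13 and 8.87e-08) and still lay below either LI group in every SI monolayer library. LI culture left Hk1 at -0.12 ± 0.05 and Hk2 at 0.21 ± 0.11, neither of them called.

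Phosphofructokinase commits sugar to glycolysis and is built from the liver (Pfkl), muscle (Pfkm) and platelet (Pfkp) subunits. Pfkl had 6015, 5958 and 5715 normalized counts in tissue and 21661, 21746 and 21273 in monolayers of SI, and 17669, 17130.2 and 16055 in tissue and 9594, 9793 and 10229 in monolayers of LI. The order of the regions was thus reversed in monolayers, with LI above SI in tissue and SI above LI in monolayers, without overlap in either. Pfkl rose by 1.91 ± 0.05 (SE), adjusted p = 3.71e-14 in SI, and its LI value of -0.73 ± 0.05 (SE), adjusted p = 5.84e-10, was not large enough to be called. Pfkm held 799, 847 and 819 in LI tissue and 227, 247 and 342 in LI monolayers, a log2 fold change of -1.55 (SE 0.12, adjusted p = 9.38e-09). Pfkp was called in neither culture comparison (0.13 in SI and -0.25 in LI).

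Aldolases cut the 6-carbon sugar. Aldoa, the widely expressed form, held 50457, 50323 and 50959 normalized counts in SI tissue and 130724, 130885 and 132956 in SI monolayers, a rise of 1.41 ± 0.04 (SE), adjusted p = 4.37e-13. In LI it went from 101547, 103870 and 101318 to 80232, 82036 and 84702, which was -0.27 ± 0.04 and not called. Aldoc, the form best known from brain, moved in opposite directions: from 1643, 1287 and 1394 to 2852, 2875 and 2809 in SI and from 2479.9, 2209 and 2360.3 to 611, 599 and 625 in LI. Its log2 fold change in LI was -1.89 (SE 0.08, adjusted p = 6.03e-12). Its SI rise of 1.02 ± 0.08 (SE), adjusted p = 1.44e-08, lay at the fold limit. It measured 0.94 without SI tissue replicate 2, 0.9993 without SI tissue replicate 3 and 0.95 with at least 10 counts in every library. With DESeq2, with DESeq2 size factors and with upper quartile scaling it measured 0.98. It was not called in any of these settings. The difference between the regions for Aldoc was -2.91 ± 0.11 (SE), adjusted p = 2.87e-11. Gpi1, which interconverts glucose and fructose phosphates, stood at 0.34 in SI and -0.87 in LI, and its difference of -1.21 ± 0.08 was called.

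Of the 5 enzymes of lower glycolysis, where ATP is regained, 3 rose in SI monolayers (Pgk1, Eno1 and Pkm; 9.71% of all genes rose) and 1 in LI monolayers (Eno1; 14.5% of all). Pgk1, which makes the first ATP of the pathway, held 39765, 39519 and 39118 normalized counts in SI tissue and 112509, 110474 and 111423 in SI monolayers, beside 41286, 46363 and 45726 in LI tissue and 54016, 53846 and 55914 in LI monolayers. SI monolayers stood above every other library. The SI rise was 1.53 ± 0.05 (SE), adjusted p = 1.36e-12. Eno1, the main enolase of most tissues, went from 76941, 70250.5 and 60116 to 153982, 154701 and 156912 in SI and from 54168, 55475 and 50337 to 118327, 126249 and 134193 in LI. Its rises of 1.20 ± 0.07 and 1.29 ± 0.07 (SE; adjusted p = 8.45e-10 and 1.64e-10) differed by 0.09 ± 0.10 (SE), adjusted p = 0.526, which did not pass the test. Eno1 has a near-identical intronless copy, Eno1b, and how reads that match both were assigned is not given in the sources used here. Pkm, pyruvate kinase, rose by 1.13 ± 0.07 (SE), adjusted p = 2.06e-09 in SI and stood at 0.66 ± 0.07 in LI. Reads of its M1 and M2 splice forms are summed in this row. Tpi1 and Pgam1 stood at 0.54 and 0.52 in SI and at -0.55 and 0.05 in LI.

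Among the 4 genes that decide what becomes of pyruvate, Pdk1 showed the largest fall of any called member in LI culture. Pdk1 encodes a kinase that switches off pyruvate dehydrogenase and so limits the conversion of pyruvate to acetyl-CoA. It held 4767, 5009.9 and 4761 normalized counts in tissue and 5836, 6087 and 5755 in monolayers of SI, and 5874, 5413 and 5705 in tissue and 809, 752 and 705 in monolayers of LI. The other 3 groups thus lay between 4761 and 6087 and LI monolayers stood far below them. The log2 fold change in LI was -2.86 (SE 0.06, adjusted p = 2.23e-15), the SI value 0.32 ± 0.06, and their difference -3.18 ± 0.08 (SE), adjusted p = 2.87e-13. Ldha, the lactate dehydrogenase subunit that favours lactate, was among the most abundant members at 201129, 204309 and 190242 in tissue and 244819, 242513 and 241529 in monolayers of SI, and 122680, 128184 and 125515 in tissue and 117304, 118176 and 123628 in monolayers of LI. Its log2 fold change with culture was 0.33 ± 0.05 in SI and -0.02 ± 0.05 in LI, within the fold limit in both. Ldhb, the heart-type subunit, was scarce, with a range of 71.2 to 374 normalized counts, and stood at -0.95 ± 0.20 and -0.94 ± 0.19. Pdk4, a kinase known from fasting, spread widely between replicates: 104, 27.1 and 36.2 in tissue and 0, 5.34 and 10.9 in monolayers of SI, and 257, 655 and 88.4 in tissue and 112, 73.5 and 17.8 in monolayers of LI. Its culture values of -3.26 ± 1.27 and -2.25 ± 0.91 did not pass the test (adjusted p = 0.0525 and 0.0525).

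The 2 regulators make or remove fructose 2,6-bisphosphate, the main activator of phosphofructokinase, and in LI they moved apart. Pfkfb3, the form with the strongest kinase activity, held 1708, 1926 and 1731 normalized counts in tissue and 4005, 3989.8 and 3972 in monolayers of SI, and 333, 304 and 166 in tissue and 2331, 2329 and 2206 in monolayers of LI. LI tissue was the lowest group and rose the most in culture. The rise was 1.19 ± 0.16 (SE), adjusted p = 6.31e-05 in SI and 3.15 ± 0.18 (SE), adjusted p = 2.46e-08 in LI, so that its difference of 1.95 ± 0.24 (SE), adjusted p = 5.07e-05, was the only one called in favour of LI. Pfkfb4, its relative, went from 8529.8, 9145 and 7735 to 5038, 5219 and 5457 in SI and from 2281, 2073 and 2019 to 445, 527 and 397 in LI. Monolayers lay below tissue without overlap in both regions, but only the LI value of -2.18 ± 0.09 (SE), adjusted p = 3.92e-12, reached the fold limit (-0.66 ± 0.08 in SI).

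Of the 4 oxygen sensing genes, 0 were called in SI culture by edgeR or DESeq2 (3 were higher at an unadjusted p under 0.05 in edgeR), and 1 fell in LI. Over all tested genes, 9.71% rose and 16.4% fell in SI and 23.5% fell in LI, so the counts of these 4 genes were near the background. Epas1 encodes HIF-2 alpha. Its libraries read 1077, 907 and 1065 in tissue and 1159, 1235 and 1198 in monolayers of SI, and 5917, 5788 and 5592 in tissue and 1329, 1369 and 1534 in monolayers of LI. LI tissue stood far above the other groups, and culture brought LI near the SI level, with a log2 fold change of -1.98 (SE 0.07, adjusted p = 9.99e-13). Hif1a, the HIF-1 alpha subunit, whose protein rather than RNA is the usual point of control, held 3947, 4084 and 3447 in tissue and 5386, 5170.2 and 4926 in monolayers of SI, and 7950.1, 6013 and 7801 in tissue and 4813, 4942 and 5346 in monolayers of LI. The culture value of Hif1a stood at 0.47 ± 0.09 in SI and -0.48 ± 0.09 in LI, and the difference of -0.95 ± 0.13 fell just short of the limit. This difference was called with upper quartile scaling (-1.03) and without LI tissue replicate 2 (-1.07). It was also called without any 1 of the monolayer libraries (-1.03 to -1.11). Egln3 held 10499, 11747 and 9191 in SI tissue and 11847, 10979 and 11406 in SI monolayers against 4711, 3458 and 3993 in LI tissue and 2551, 2639 and 2355 in LI monolayers, and so lay higher in SI in either state. The prolyl hydroxylases Egln1 and Egln3 stood at 0.46 and 0.16 in SI and at 0.05 and -0.64 in LI. These files hold RNA levels only.

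Of the 8 hypoxia targets, 6 rose in SI monolayers (Adm, Ankrd37, Bnip3, Ndrg1, P4ha1 and P4ha2), and in LI monolayers 1 rose (P4ha2) and 2 fell (Bnip3 and Higd1a). Over all tested genes, 9.71% rose and 16.4% fell in SI and 14.5% rose and 23.5% fell in LI, so that the LI counts of these 8 genes were near the background. P4ha1 and P4ha2 are catalytic subunits of the prolyl hydroxylase that matures collagen. P4ha2 held 89.4, 52.1 and 84.1 normalized counts in tissue and 592, 548 and 549.8 in monolayers of SI, and 169, 160.2 and 152 in tissue and 932, 839 and 887 in monolayers of LI. Its monolayers exceeded its tissue libraries in both regions, by 2.94 ± 0.16 (SE), adjusted p = 2.12e-10 in SI and 2.51 ± 0.15 (SE), adjusted p = 2.37e-10 in LI. P4ha1 went from 398, 339 and 314 to 2088, 2097 and 2069 in SI, 2.61 ± 0.10 (SE), adjusted p = 3.88e-12, and from 999, 808 and 791 to 1328, 1384 and 1299 in LI, where 0.67 ± 0.09 was not called.

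Bnip3, a mitochondrial protein that promotes mitophagy, turned in opposite directions. It held 659, 505 and 479 in SI tissue and 677, 619 and 570.4 in LI tissue, which overlapped, and 1927, 1723 and 1648 in SI monolayers against 191, 234 and 202 in LI monolayers. The SI rise of 1.73 ± 0.12 (SE), adjusted p = 3.77e-09, and the LI change of -1.53 (SE 0.13, adjusted p = 1.73e-08) gave the largest difference between regions of all members, -3.26 ± 0.18 (SE), adjusted p = 7.35e-10. Higd1a, a small protein of the mitochondrial inner membrane, held 14079.9, 16877 and 12501 in LI tissue and 4450.5, 4193 and 4468 in LI monolayers, a log2 fold change of -1.68 (SE 0.10, adjusted p = 1.01e-09) that brought it close to SI monolayers at 4837, 4488 and 4688. Ankrd37, an ankyrin repeat protein, rose in SI from 120.0, 82.4 and 166 to 819, 859.9 and 894, 2.83 ± 0.24 (SE), adjusted p = 8.19e-08, while its LI groups overlapped at 200.2, 341 and 219 in tissue and 263, 224 and 247 in monolayers. Ankrd37 shares exon positions with Ufsp2 and Lrp2bp on the opposite strand, and whether the counting used strand is not given in the sources used here.

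The peptide hormone gene Adm, or adrenomedullin, was higher in SI monolayers by 1.93 ± 0.22 (SE), adjusted p = 9.98e-07, with 55.3, 79.2 and 93.8 normalized counts in SI tissue and 269, 290.2 and 294 in SI monolayers. Ndrg1, a stress-responsive gene, was higher there by 1.25 ± 0.13 (SE), adjusted p = 5.93e-06. Their LI values of 0.68 ± 0.20 and 0.57 ± 0.13 were positive but not called. Vegfa, the growth factor for blood vessels and a classical HIF target, held 2621, 2904 and 2407 in tissue and 4012, 4411 and 4169 in monolayers of SI, and 2896, 2556 and 2449 in tissue and 1657, 1802 and 1574 in monolayers of LI. Tissue of the regions overlapped, SI monolayers lay above and LI monolayers below it, and although 0.70 ± 0.08 and -0.60 ± 0.08 were not called singly, their difference was, at -1.31 ± 0.11 (SE), adjusted p = 9.89e-08. The difference for Adm, -1.25 ± 0.29, was -0.98 without LI tissue replicate 1, inside the limit.

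**Figure D3:**
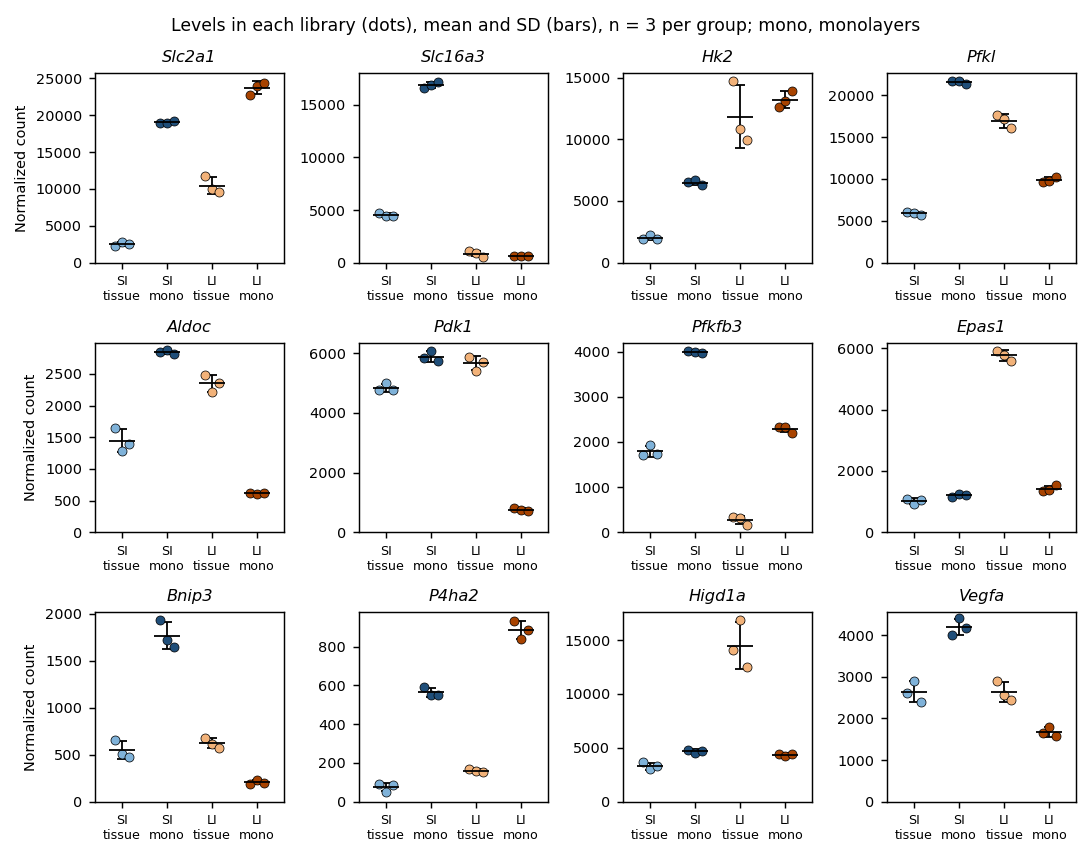
Normalized counts of 12 members in each library (dots), with the mean and SD of each group of 3 libraries (bars); each panel has its own vertical axis starting at 0. The region order of Pfkl, with LI above SI in tissue, is turned round in monolayers, and Pdk1 is low in LI monolayers alone.

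Promoter windows were read to show what the genes that rose in both regions hold near their starts. The core letters bound by HIF are ACGTG or GCGTG, which were searched on both strands in RefSeq windows of 300 bases (250 before the start and 50 from it on, GRCm38.p6). Of the 33 symbols, 31 had a window, and Epas1 and Ndrg1 had none in the table. At least 1 core stood in a window of 29 of these 31 members (93.5%), of 63.0% of the 12623 tested genes with a window and of 46.7% of all 27025 genes with a window. For ACGTG the shares were 67.7%, 27.5% and 21.8%, and for GCGTG 71.0%, 51.4% and 35.2%. Genes with several starts have several chances to hold a core, and by windows the share with either core was 82.2% of 45 for members and 57.6% of 16073 for tested genes. The members were listed as genes of glycolysis and of the response to low oxygen, so their higher shares are no independent result. The other genes were not matched to them for base composition or level. A match is a description of the letters, not of binding.

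The windows of the 4 members that rose in both regions are given first, each by the start with the most cores (for Eno1, whose 3 windows tie at 2 sites, the one with the lowest coordinate), in order of their mean rise, followed by Bnip3 and Pdk1, which were chosen after their values were seen because they differed most between the regions. Sequences run 5′ to 3′ along the gene, and capitals mark the cores on either strand, so that CACGC is the reverse complement of GCGTG.
P4ha2 (chr11:54100674-54100973, plus strand): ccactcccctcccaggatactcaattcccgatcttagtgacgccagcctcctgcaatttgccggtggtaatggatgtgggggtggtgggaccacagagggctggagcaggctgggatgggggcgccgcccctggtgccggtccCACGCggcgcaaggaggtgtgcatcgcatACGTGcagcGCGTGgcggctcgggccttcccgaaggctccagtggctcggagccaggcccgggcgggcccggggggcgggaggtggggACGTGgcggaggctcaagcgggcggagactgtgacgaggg
Pfkfb3 (chr2:11502041-11502340, minus strand): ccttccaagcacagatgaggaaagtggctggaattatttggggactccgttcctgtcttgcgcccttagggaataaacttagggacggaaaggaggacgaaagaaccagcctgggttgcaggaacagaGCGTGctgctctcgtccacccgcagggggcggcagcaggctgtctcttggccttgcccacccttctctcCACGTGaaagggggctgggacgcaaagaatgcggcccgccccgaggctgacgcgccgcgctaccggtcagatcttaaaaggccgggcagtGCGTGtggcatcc
Slc2a1 (chr4:119108495-119108794, plus strand): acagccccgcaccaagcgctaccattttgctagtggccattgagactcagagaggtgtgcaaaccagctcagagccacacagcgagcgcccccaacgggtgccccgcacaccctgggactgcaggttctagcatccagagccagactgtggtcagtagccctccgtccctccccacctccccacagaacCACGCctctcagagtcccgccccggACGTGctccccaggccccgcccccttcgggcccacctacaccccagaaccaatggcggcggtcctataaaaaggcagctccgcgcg
Eno1 (chr4:150236458-150236757, plus strand): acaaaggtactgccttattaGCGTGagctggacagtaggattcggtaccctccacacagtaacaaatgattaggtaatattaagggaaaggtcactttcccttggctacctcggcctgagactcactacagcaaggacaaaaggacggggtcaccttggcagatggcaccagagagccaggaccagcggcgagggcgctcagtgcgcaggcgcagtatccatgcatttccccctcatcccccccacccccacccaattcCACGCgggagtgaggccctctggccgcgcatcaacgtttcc
Bnip3 (chr7:138909457-138909756, minus strand): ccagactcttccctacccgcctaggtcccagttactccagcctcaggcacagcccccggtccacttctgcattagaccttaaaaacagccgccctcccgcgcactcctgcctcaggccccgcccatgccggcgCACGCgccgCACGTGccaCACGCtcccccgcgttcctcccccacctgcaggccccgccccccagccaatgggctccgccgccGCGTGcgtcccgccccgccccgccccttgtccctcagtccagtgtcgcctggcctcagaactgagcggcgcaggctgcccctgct
Pdk1 (chr2:71872974-71873273, plus strand): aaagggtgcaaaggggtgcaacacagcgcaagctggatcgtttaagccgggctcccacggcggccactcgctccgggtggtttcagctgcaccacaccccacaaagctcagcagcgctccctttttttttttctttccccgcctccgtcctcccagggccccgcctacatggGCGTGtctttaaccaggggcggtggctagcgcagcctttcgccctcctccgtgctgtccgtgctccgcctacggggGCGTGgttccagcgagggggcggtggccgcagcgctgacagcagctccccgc

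In these windows P4ha2 and Bnip3 hold 4 separate sites each, Pfkfb3 holds 3, and Slc2a1, Eno1 and Pdk1 hold 2. The ACGTG of Slc2a1 begins 36 bases before its start, with a CACGC 61 bases before. Pfkfb3 and Bnip3 contain the palindrome CACGTG, beginning 53 and 108 bases before the start, which reads ACGTG on both strands and is counted as 1 site; it is also the E-box bound by other factors. In Bnip3, 3 of the sites begin between 117 and 99 bases before the start. Eno1 and Pdk1 hold GCGTG cores and no ACGTG. Thus windows with 4 sites belonged both to a gene that rose in both regions (P4ha2) and to one that rose in SI and fell in LI (Bnip3).

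Several steps of glycolysis are shared by isoenzymes, and the members are only part of these families. Normalized counts per kilobase of exon were therefore turned into shares of each family, which are levels per length and are described without a test (mean ± SD, n = 3). Hk1 and Hk2 made up 2.96% ± 0.45 and 4.83% ± 0.69 of hexokinase RNA in SI tissue, where Hkdc1, a hexokinase relative, took 91.9% ± 1.1. In SI monolayers the 3 shares were 13.9% ± 0.25, 22.6% ± 0.88 and 62.9% ± 0.87. In LI the members dominated throughout, with Hkdc1 at 4.44% ± 2.3 in tissue and 2.17% ± 0.38 in monolayers. The order of Hk1 and Hk2 depends on the length used in both SI groups and in LI monolayers: Hk1 took 45.4% ± 0.44 in LI monolayers by merged exons and 60.2% by the longest transcript.

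Among phosphofructokinases, Pfkp led in SI tissue at 62.7% ± 4.5, and Pfkl led in the other groups at 53.1% ± 0.85 in monolayers of SI and 60.3% ± 1.2 and 54.3% ± 0.54 in tissue and monolayers of LI.

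Eno1 took 97% ± 0.34, 99.1% ± 0.12 and 99.5% ± 0.033 of enolase RNA in SI tissue, SI monolayers and LI monolayers, but 49.4% ± 6.3 in LI tissue. There Eno3, the muscle enolase, took 50.4% ± 6.4, or 30.1% by the longest transcript. Eno3 held 17017, 14563 and 21878 normalized counts in LI tissue and 156, 165 and 148 in LI monolayers, a difference of -6.79 ± 0.21 (SE), adjusted p = 2.36e-10. The 6 smooth muscle markers of the same LI tissue libraries summed to 3.52 to 45.5 CPM, against 3.66 to 4.81 in LI monolayers. All 6 were highest in LI tissue replicate 1, where Myh11 held 676 normalized counts against 47.6 and 19.6 in replicates 2 and 3. Eno3 was highest in LI tissue replicate 3, and the part of smooth muscle in its level was not tested. Pkm took 65.6% ± 2.1 of pyruvate kinase in SI tissue and 87.8% ± 0.43 in LI tissue, the rest being Pklr, the liver and red cell form. Ldha made up 99.5 to 99.9% of lactate dehydrogenase in the group means, so the changes of Ldhb concern a small share. Pdk1 took 18.9% ± 2, 47.6% ± 1.7, 27.5% ± 2.5 and 13.9% ± 1 of pyruvate dehydrogenase kinase RNA, in that order of SI tissue and monolayers and of LI tissue and monolayers. Among HIF alpha subunits, Epas1 held 45.3% ± 3.9 in LI tissue and 22.8% ± 0.37 in LI monolayers, and about as much as the latter in both SI groups (21.9% ± 2.8 and 19.5% ± 1).

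**Figure D4:**
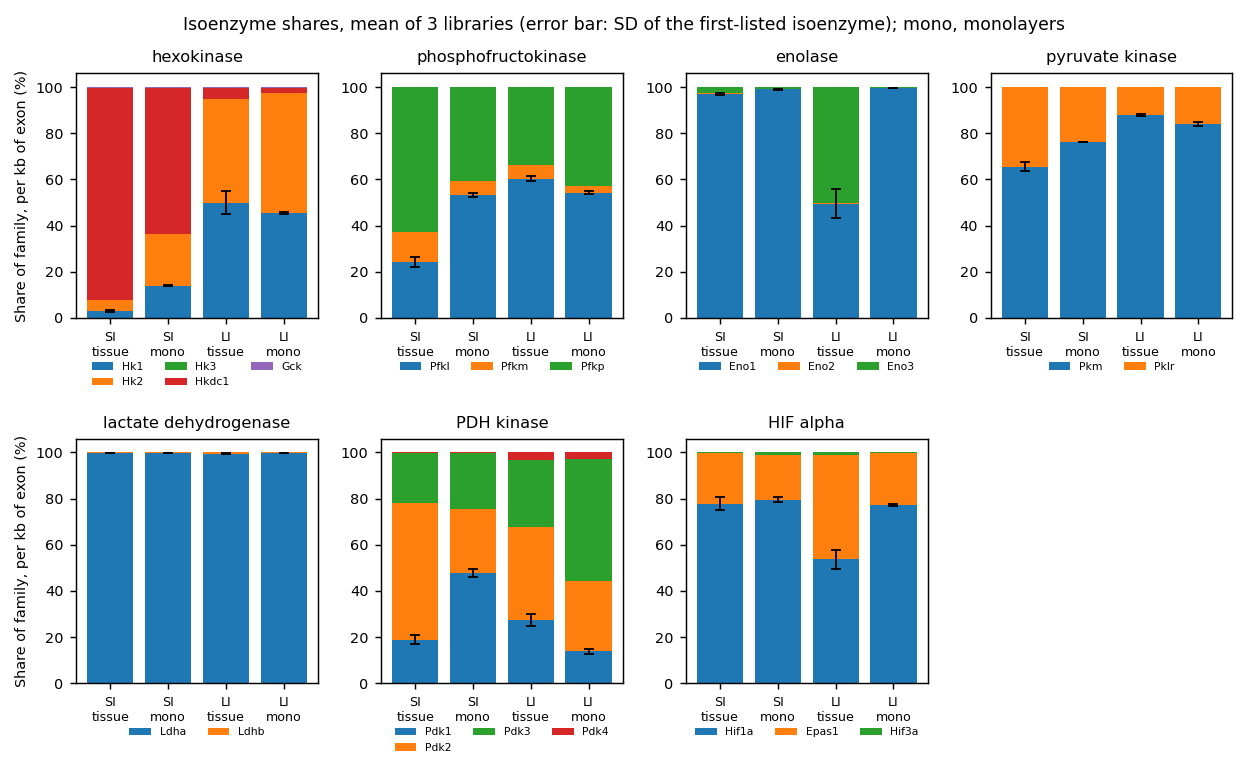
Share of each isoenzyme in its family, from normalized counts per kilobase of merged exons, as the mean of 3 libraries per group; the error bar is the SD of the isoenzyme listed first. Hkdc1 fills most of its bars in SI, and Eno3 is visible in LI tissue at 50.4%.

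The second question was how the regions differ in these genes. In tissue, 11 members (32.4%) were higher in LI than in SI, against 11.1% of all genes, and 4 (11.8%) were lower, against 11.6% of all. Without a minimum fold change the counts were 18 and 11, against 24.7% and 29.2% of all. The 11 past the limit were Slc2a1, Hk1, Hk2, Pfkl, Ldhb, Pdk4, Epas1, Adm, Higd1a, P4ha1 and P4ha2. Hk1 differed the most at 3.37 ± 0.05 (SE), adjusted p = 3.84e-16, followed by Pdk4 at 2.56 ± 0.93, Hk2 at 2.52 ± 0.12, Epas1 at 2.46 ± 0.08, Higd1a at 2.09 ± 0.10 and Slc2a1 at 2.01 ± 0.07. The 4 that were lower in LI tissue were Slc16a3 (-2.48 ± 0.17), Pfkfb3 (-2.79 ± 0.18), Pfkfb4 (-2.04 ± 0.08) and Egln3 (-1.41 ± 0.10). Ankrd37 and Aldoa, which are not among the 11, were called higher in LI under some other settings. Ankrd37 measured 1.03 with DESeq2 (adjusted p = 2.85e-05) and Aldoa 1.05 with upper quartile scaling (adjusted p = 2.06e-11). Hif1a and Ndrg1 (higher) and Pfkm (lower) passed the limit only with a single library left out. Of the higher calls, 3 were lost with a single library left out. P4ha2 measured 0.84 without SI tissue replicate 2, Ldhb 0.91 to 0.99 without SI tissue replicate 3 or LI tissue replicate 1 or 2, and Pdk4 missed the threshold without any one of 6 libraries, with the highest adjusted p of 0.171 without LI tissue replicate 2. Of the 5 lower glycolysis enzymes, 0 were called between the tissues by edgeR or DESeq2, although at an unadjusted p under 0.05 in edgeR 1 was higher and 3 were lower in LI.

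In monolayers the balance lay the other way. Of the 34 rows, 16 (47.1%) were lower in LI than in SI, against 12.4% of all genes, and 3 (8.82%) were higher, against 8.88% of all. Without a minimum fold change 22 were lower and 8 higher, against 27% and 24.9% of all. Slc16a3 differed the most at -4.80 ± 0.19 (SE), adjusted p = 8.62e-09, followed by Pfkfb4 at -3.55 ± 0.09, Bnip3 at -3.11 ± 0.13, Pdk1 at -2.99 ± 0.06 and Pfkm at -2.28 ± 0.12. Aldoc (-2.25 ± 0.08), Egln3 (-2.21 ± 0.11), Ankrd37 (-1.84 ± 0.22), Gpi1 (-1.46 ± 0.06), Tpi1 (-1.41 ± 0.06) and Vegfa (-1.35 ± 0.08) came next, and Pfkl, Pfkp, Pgam1, Pgk1 and Ldha lay between -1.16 and -1.05. Of the 5 enzymes of lower glycolysis, which were not called between tissues, 3 were lower in LI monolayers. Hk1 (1.50 ± 0.05), Ldhb (1.05 ± 0.20) and Pdk4 (3.57 ± 1.25) were higher in LI monolayers, and without SI monolayers replicate 2 the count fell from 3 to 1, with Hk1 left. Ldhb also lost its call without LI monolayers replicate 3 (0.89), and Pdk4 without any one of 8 libraries. Hk2 gained a call as higher in LI under some other settings, measuring 1.03 with DESeq2 (adjusted p = 1.28e-17).

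Replicates of the 28 members with a mean of at least 10 CPM were closest in SI monolayers. The median coefficient of variation was 1.69% there, 4.1% in LI monolayers, 6.36% in LI tissue and 8.56% in SI tissue. The widest member was Pfkp in SI tissue at 18.2%, Bnip3 in SI monolayers at 8.2%, Pfkfb3 in LI tissue at 33.3% and Pfkm in LI monolayers at 22.6%. Tissue libraries came from mice and monolayer libraries from sets of pooled wells that may share a mouse. The spreads of tissue and monolayers are therefore not of like units.

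The other genes of these pathways did not all move with the members. Their counts read against 9.71% of all genes higher and 16.4% lower in SI culture, and 14.5% higher and 23.5% lower in LI culture. Of 19 further tested hypoxia targets, 10 rose and 1 fell in SI monolayers, and 4 rose and 5 fell in LI monolayers, with median log2 fold changes of 1.06 and 0.24. Ak4, a mitochondrial adenylate kinase, went from 102, 58.4 and 105 to 2357, 2392 and 2493 normalized counts in SI and from 3535, 2683 and 2053 to 697, 671 and 715 in LI, with changes of 4.80 ± 0.23 (SE), adjusted p = 8.95e-09, and -1.94 ± 0.19 (SE), adjusted p = 2.55e-06. It therefore rose in SI, where its tissue level was low, and fell in LI. The inducible nitric oxide synthase gene Nos2 rose by 3.30 ± 0.30 in SI, and for Nos2 and Fam162a, a HIF target in mitochondria, the difference between regions was -4.66 ± 0.41 and -3.33 ± 0.17. Hmox1, which degrades haem, and Angptl4, a lipase inhibitor, rose in both regions, by 3.09 ± 0.13 and 3.43 ± 0.31 in SI and by 3.99 ± 0.13 and 3.93 ± 0.35 in LI. In the difference between regions 9 of the 19 were lower in LI, against 11.4% of all genes, and 1 was higher, against 8.51%.

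Of 15 other glycolysis genes, 2 rose and 4 fell in SI monolayers, and 1 rose and 7 fell in LI monolayers, with medians of -0.48 and -1.03. Gapdh, the enzyme between aldolase and Pgk1, rose in SI by 1.18 ± 0.06 (SE), adjusted p = 6.21e-11. Tigar, which lowers fructose 2,6-bisphosphate, rose there by 1.02 ± 0.10, at the fold limit. DESeq2 called 1 of these 15 genes higher in SI monolayers where edgeR called 2. Hkdc1 fell in SI (log2 fold change -1.06, SE 0.32, adjusted p = 0.0192). In LI, Slc16a1, the carrier MCT1, and Bpgm fell, with log2 fold changes of -1.74 ± 0.07 and -1.49 ± 0.06.

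Of 13 genes of gluconeogenesis and of glucose and fructose entry, 8 fell and 1 rose in SI monolayers, and 7 fell and 0 rose in LI monolayers, where edgeR had 1 higher at an unadjusted p under 0.05 and DESeq2 also called 0. The medians were -1.53 and -1.01. Pck1, the gatekeeper of gluconeogenesis, held 4968, 3525 and 2462 in SI tissue and 59.5, 48.1 and 21.9 in SI monolayers, and 7606, 7958 and 7049 in LI tissue and 194, 184 and 196 in LI monolayers. This was a change of -6.37 ± 0.35 on the log2 scale in SI and of -5.25 ± 0.30 in LI. The apical sugar carriers Slc2a5 (GLUT5) and Slc5a1 (SGLT1) fell in SI, with log2 fold changes of -3.48 ± 0.28 and -2.58 ± 0.17, while Slc2a1 rose. Slc5a1 is itself 1 of the 6 enterocyte markers. The other 5 summed to 7790 to 10800 CPM in SI tissue and 3460 to 3710 in SI monolayers, and the part of enterocytes in these changes was not tested.

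Of 11 genes around pyruvate dehydrogenase, 1 rose and 2 fell in SI and 1 rose and 5 fell in LI (medians -0.73 and -0.87), of which the SI counts equal about the background share. The phosphatase gene Pdp1, which reactivates the enzyme that Pdk1 blocks, rose by 2.31 ± 0.08 in SI and 2.93 ± 0.08 in LI, and the kinase Pdk2 fell, with log2 fold changes of -2.12 ± 0.10 and -2.28 ± 0.10. Of 12 further genes of the HIF machinery, 2 rose and 0 fell in SI (2 were lower at an unadjusted p under 0.05, and DESeq2 called 0 lower), and 2 rose and 1 fell in LI (medians 0.31 and 0.25), among them Siah2, a ubiquitin ligase, which rose by 1.46 ± 0.11 in LI. For the 7 genes of the pentose phosphate pathway, edgeR and DESeq2 called 0 in either region. At an unadjusted p under 0.05 in edgeR, 4 were higher and 1 lower in SI, and 1 higher and 5 lower in LI, and the medians were 0.16 and -0.47.

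**Figure D5:**
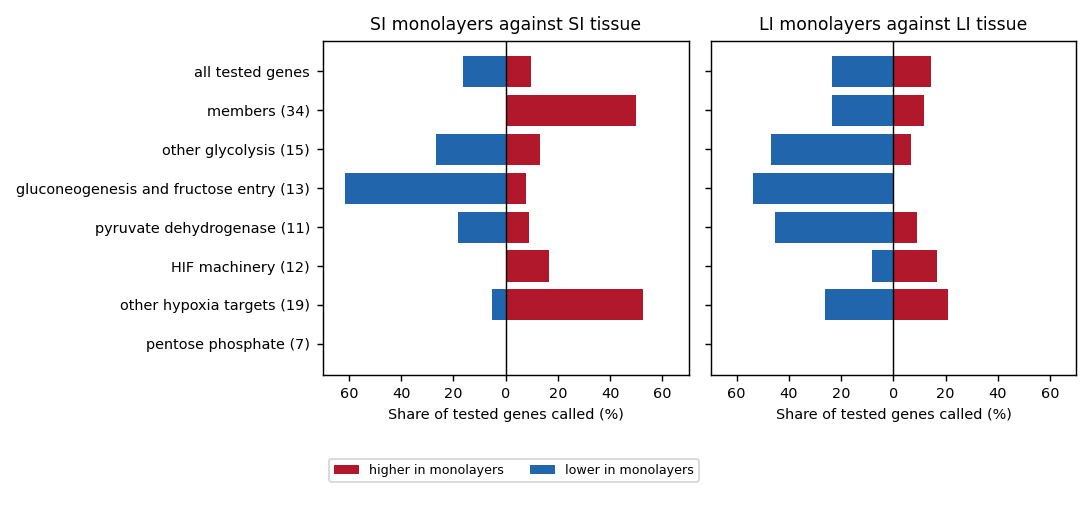
Share of tested genes called higher (red, to the right) or lower (blue, to the left) in monolayers than in tissue, for all tested genes, the 34 member rows and 6 further lists (number of tested genes in brackets), in SI and LI. In SI, the members and the other hypoxia targets reach 50% and 52.6% higher, whereas gluconeogenesis and fructose entry reaches 61.5% lower.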

How the data were processed

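RNA of the 12 libraries was sequenced by the authors, aligned to GRCm38 and counted per GENCODE gene; the submitters' processing notes name STAR 2.7.9a, featureCounts 2.0.2 and DESeq2 (given there as 3.13). The authors deposited raw counts per gene, and a normalized signal, which is the counts divided by DESeq2 size factors. All columns were mapped to a library by its title. The strand setting and the treatment of multiply mapped reads are not given in the sources used here. Exons of 13 members overlap another gene, 12 of them on the opposite strand and 3 on the same strand (Pfkm, Pkm and Hif1a), with some on both. Gene symbols, positions and lengths came from GENCODE vM21 on the same build, and promoters from RefSeq.

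Counts were tested with edgeR 4.0.16 in R 4.3.3: genes kept by filterByExpr (19581), TMM scaling, robust quasi-likelihood fits in 1 model of the 4 group means, and Benjamini-Hochberg adjustment over all tested genes within each of 5 comparisons. The test was checked on simulated data in which only a small part of the genes differed, in a single group, so the check does not cover the scaling. Every pair of replicates differed by more than sampling noise (chi-square per degree of freedom 5.76 or more). Libraries of 59016196 to 76216530 counts put the floor of 3 counts at 0.0394 to 0.0508 CPM, which covers counting error only; 73.4 to 77.4% of counts from 1 to 20 were even. Alternatives were DESeq2 1.42.0, other scalings and filters, a replicate block, only the groups compared and each library left out. Further genes were named by a rule: from each pathway list at most the 4 called genes with the largest change and a mean of at least 10 CPM. Promoters followed a rule too, apart from Bnip3 and Pdk1. Members and lists were chosen with earlier results of these data known. Shares within the aldolase family are not reported here. The drug screen was not analysed here.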

Additional observations from a re-analysis of the deposited data

Results flagged for a closer look

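The 21 results below drew attention because the test of the difference between regions, the culture change in LI minus that in SI, passed the threshold. All values are on the log2 scale. The difference was -1.71 for Slc2a1 and -2.33 for Slc16a3 among the carriers. In upper glycolysis it was -1.86 for Hk1, -1.53 for Hk2, -1.21 for Gpi1, -2.64 for Pfkl, -1.30 for Pfkm, -1.68 for Aldoa and -2.91 for Aldoc. In lower glycolysis it was -1.09 for Tpi1 and -1.19 for Pgk1, and it was -3.18 for Pdk1. Of the regulators, Pfkfb3 stood at 1.95 and Pfkfb4 at -1.52. Among the oxygen sensing and target genes, the difference was -2.26 for Epas1, -1.31 for Vegfa, -1.25 for Adm, -2.84 for Ankrd37, -3.26 for Bnip3, -2.21 for Higd1a and -1.94 for P4ha1. Of these 21, 2 (Aldoc and Bnip3) were called in opposite directions in the 2 regions. The SI call of Aldoc lay at the fold limit and was lost under several other settings, as given above. Groups of 3 libraries are too small for a check of single outlying libraries.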

How the results depend on the processing

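Each count of called members was recomputed under 8 other settings (7 for the difference between regions) and without each of the 12 libraries. Without a minimum fold change the counts were 27 higher and 2 lower in SI culture, 9 and 18 in LI culture, 18 and 11 between tissues, 8 and 22 between monolayers, and 1 and 28 for the difference, for which the shares of all genes stand beside the counts above. The count of 0 lower in SI culture became 1 with DESeq2, with upper quartile scaling, with DESeq2 size factors and with only the 2 groups compared (Pdk4 each time), with at least 10 counts in every library (Ldhb) and with the replicate block (the second Aldoa row). With 1 library left out, the counts ran higher and lower from 16 to 17 and 0 to 1 in SI culture, 4 to 4 and 8 to 10 in LI culture, 9 to 13 and 4 to 5 between tissues, 1 to 3 and 16 to 16 between monolayers, and 1 to 1 and 19 to 21 for the difference between regions. The lowest value between monolayers, 1, came without SI monolayers replicate 2. The cause was not tested.

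Same-numbered libraries did not deviate together (r from -0.052 to 0.056 in 18 pairs), and the numbers were not used as pairs in the main model. This cannot tell whether libraries share a mouse, because an effect of the mouse may be small beside other differences between libraries. With the replicate block the counts were 17 and 1 in SI culture, 4 and 8 in LI culture, 11 and 4 between tissues, 2 and 16 between monolayers and 1 and 20 for the difference. Of 2704 refits of single members with an adjusted p under 0.05, 2620 kept their call, 32 in 7 cases lost it, 52 gained one and 0 changed sign. The cases were Aldoc in SI culture, Ldhb and Pdk4 in both region comparisons, P4ha2 between tissues and Adm for the difference. Upper quartile scaling shifted the median of all genes in LI culture by -0.12. Isoenzyme shares moved by more than their SD in 67 of 88 cases with the longest transcript as length. They moved in 0 with CPM, which was fixed in advance, because a scaling factor per library cancels within a share. The second Aldoa row and Pdk4 had the lowest counts of the members.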

Other observations

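Genes of the same pathways that are no members also differed between the regions. In LI tissue, 8 of 13 genes of gluconeogenesis and of glucose and fructose entry were lower than in SI tissue and 1 was higher, and in LI monolayers 9 were lower and 1 was higher than in SI monolayers. Over all tested genes, 11.6% were lower and 11.1% higher in LI between tissues, and 12.4% and 8.88% between monolayers. Slc2a2, the basolateral glucose carrier GLUT2, held 18218, 15057 and 10186 normalized counts in SI tissue against 80.8, 20.1 and 8.93 in LI tissue, a log2 fold change of -8.68 ± 0.53 (SE), adjusted p = 1.07e-06. Khk, which traps fructose, stood at -4.08 ± 0.13 between tissues and at -4.43 ± 0.14 between monolayers.

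Between monolayers, 3 of the 7 pentose phosphate genes were lower in LI: Tkt (-1.55 ± 0.05), G6pdx (-1.33 ± 0.07) and Rpia (-1.05 ± 0.05), whereas 0 were called between tissues by edgeR or DESeq2 (5 were lower in LI at an unadjusted p under 0.05 in edgeR). For Tkt and G6pdx the culture change also differed between the regions, by -1.14 ± 0.07 and -1.02 ± 0.10. Ero1l, an oxidase of the endoplasmic reticulum, held 21759, 20431 and 20664 normalized counts in SI monolayers and 3776, 4171 and 3980.4 in LI monolayers, and Plin2, a lipid droplet protein, was higher in LI monolayers by 1.94 ± 0.09.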
